A study of Mus musculus with 20 samples.

Results

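The 6 genes described here encode subunits of the NMDA receptor, a glutamate-gated ion channel of excitatory synapses, and were chosen by name from the 25190 genes in the table. They are Grin1, Grin2a, Grin2b, Grin2c, Grin2d and Grin3a. NMDA receptors assemble from GluN1, which Grin1 encodes and which every such receptor needs, together with GluN2 subunits from the 4 Grin2 genes or with GluN3 subunits such as that of Grin3a. GluN1 and GluN3 bind glycine or D-serine, GluN2 binds glutamate, and the GluN2 subunit sets how long the channel stays open and how strongly magnesium blocks it. In the adult hippocampus GluN2A and GluN2B are the main partners of GluN1 in pyramidal neurons, where calcium entering through the receptor starts the phosphorylation steps of synaptic plasticity, while GluN2C and GluN2D are better known from astrocytes, interneurons, cerebellum and thalamus.

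The study asked how gene expression in the mouse hippocampus responds to small RNAs (sRNAs) taken from the brains of people with schizophrenia. Poly(A) RNA was sequenced in 20 libraries from wild-type C57BL/6JOlaHsd male mice, labelled as 4 months old, with no gene altered in any group. All mice had cannulas placed in CA1 of the dorsal hippocampus and were tested for behaviour before the tissue was taken, and each of the 4 groups holds 5 libraries. The Vehicle group was infused with artificial cerebrospinal fluid and the Control group with 1 pool of human hippocampal sRNAs from individuals without the disorder, while Pool 1 and Pool 2 denote infusion of sRNAs from separate sets of patients. Libraries of a group therefore share the pool that was infused, and the labels do not spell out whether each library came from a separate mouse, so p-values measure the spread between these libraries only.

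Deposited read counts summed to between 20588280 and 25543939 per library, and all values below were computed from them, the fold changes in a single edgeR quasi-likelihood fit over the 4 groups. Levels are CPM, read counts scaled to library size by the trimmed mean of M values. A gene counted as past the threshold when its log2 fold change reached 0.3 in size with an unadjusted p below 0.05, and adjusted p-values are from edgeR with Benjamini-Hochberg adjustment over all genes. Under that rule 3.48% of all genes passed in Pool 1 against Control, 6.22% in Pool 2 against Control and 6.82% in Pool 2 against Pool 1, and 0 genes had an adjusted p below 0.05 in any comparison. Without adjustment, 1314, 1939 and 2146 genes (5.22%, 7.70% and 8.52%) had a p below 0.05 in those comparisons, and against Vehicle 1672 did in Control, 1603 in Pool 1 and 1385 in Pool 2. DESeq2 gave 7, 18 and 115 genes with an adjusted p below 0.05, and 0, 34 and 9 against Vehicle, of which 0 were among the 6 subunits. As for the tissue, 6 of 6 markers of CA1 pyramidal neurons, 4 of 4 of CA2 and CA3 neurons and 4 of 4 of dentate granule cells stood at 1 CPM or more in all 20 libraries, as did 8 of 8 markers of thalamus and 4 of 5 of neocortex. Markers of other sources differed between libraries. Choroid plexus markers summed to between 95.4 and 2309 CPM in 19 libraries and to 9083 CPM in Vehicle replicate 4, and 3, 7 and 6 of 7 were lower past the threshold in Control, Pool 1 and Pool 2 against Vehicle, beside 3.41%, 4.28% and 1.89% of all genes. Thalamus markers had a summed level that lay between 124 and 531 CPM in Pool 2, 91.0 and 220 CPM in Control, 103 and 128 CPM in Pool 1 and 142 and 157 CPM in Vehicle. Of the 8 thalamus markers 6 were higher past the threshold in Pool 2 against Control, beside 5.20% of all genes, and 7 in Pool 2 against Pool 1, beside 5.66%. Microglial markers summed to 1098 CPM in Pool 2 replicate 1, and 3 of 8 were higher past the threshold in Pool 2 against Control and 6 of 8 in Pool 2 against Pool 1, beside 5.20% and 5.66% of all genes. The part of these differences in the results below was not tested except where a value is given.

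All 6 genes lie on the minus strand of the mouse genome (GRCm38). Grin1 is at chr2:25291181-25319187, Grin2a at chr16:9567898-9995560 and Grin2b at chr6:135713233-136173511. Grin2c is at chr11:115249169-115267243, Grin2d at chr7:45831883-45878378 and Grin3a at chr4:49661611-49845744. The loci differ in the length of what is transcribed, since the longest transcript of Grin1 is 4276 bases against 14634 for Grin2a and 24060 for Grin2b. It is 4895 bases for Grin2c, 5431 for Grin2d and 7491 for Grin3a. GC content of the transcripts separates the genes in another way, with 44.8% for Grin2a, 45.7% for Grin2b and 49.2% for Grin3a below 59.4% for Grin1, 62.1% for Grin2c and 65.0% for Grin2d. Grin1 overlaps the antisense gene Grin1os, which had 0 to 7 counts per library. Grin2d overlaps Kdelr1 on the opposite strand and Grin3a overlaps Ppp3r2 on its own strand.

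The coding stretch for the channel gate shows how closely the subunits are related, and it is given for 5 of them because the counts rest on telling them apart. Each line holds 24 bases of the coding sequence of GRCm38 transcripts, 5′ to 3′, with the 11 positions that are not identical in all 6 genes in capitals and the 13 shared ones in lower case.
Grin1: TCCtaCacTgcCaaCCtGgcAgcC
Grin2a: AGTtaCacAgcCaaCCtGgcTgcC
Grin2c: AGCtaCacGgcCaaTCtGgcAgcC
Grin2d: AGCtaTacAgcCaaTCtGgcTgcC
Grin3a: ACAtaCacAgcGaaCTtGgcTgcT
Counted from the first base of each start codon, the stretch runs from 1999 to 2022 in Grin1 and from 1930 to 1953 in Grin2a. It runs from 1924 to 1947 in Grin2c, 2005 to 2028 in Grin2d and 2275 to 2298 in Grin3a. Against Grin1 the Grin2a stretch differed at 5 positions, Grin2c at 4, Grin2d at 6 and Grin3a at 7.

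Over the whole coding sequences, the longest run of identical bases was found between each of the 15 pairs of subunits. It is shown for a pair in which it was among the longest, for comparison with the read length.
Grin2c and Grin2d: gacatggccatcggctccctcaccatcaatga
This run is 32 bases long, against 28 between Grin2a and Grin2d and 24 between Grin2a and Grin2b, and the pairs with Grin1 or Grin3a shared 12 to 14. The reads were 50 bases long, and 0 of the 15 pairs shared a run of that length in their coding sequence.

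Grin1 was the most abundant subunit transcript per unit of length in all 20 libraries. When counts were divided by the length of all exons joined, Grin1 made up 50.2% ± 4.79 (SD, n = 20) of the summed level of the 6 genes. Grin2b followed with 21.6% ± 3.89, Grin2a with 15.5% ± 2.24 and Grin2c with 9.49% ± 1.51, while Grin3a with 1.84% ± 0.320 and Grin2d with 1.39% ± 0.268 were minor components. The order Grin1, Grin2b, Grin2a, Grin2c, Grin3a, Grin2d held between neighbours in 20, 20, 19, 20 and 18 of 20 libraries, so that Grin2a and Grin2c changed places in 1 library and Grin3a and Grin2d in 2. The shares depend on which length is used. With the longest transcript in place of joined exons, Grin1 took 67.0% and Grin2b 13.2%, and the order was the same, with Grin2b above Grin2a in 18 of 20 libraries.

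**Figure D1:**
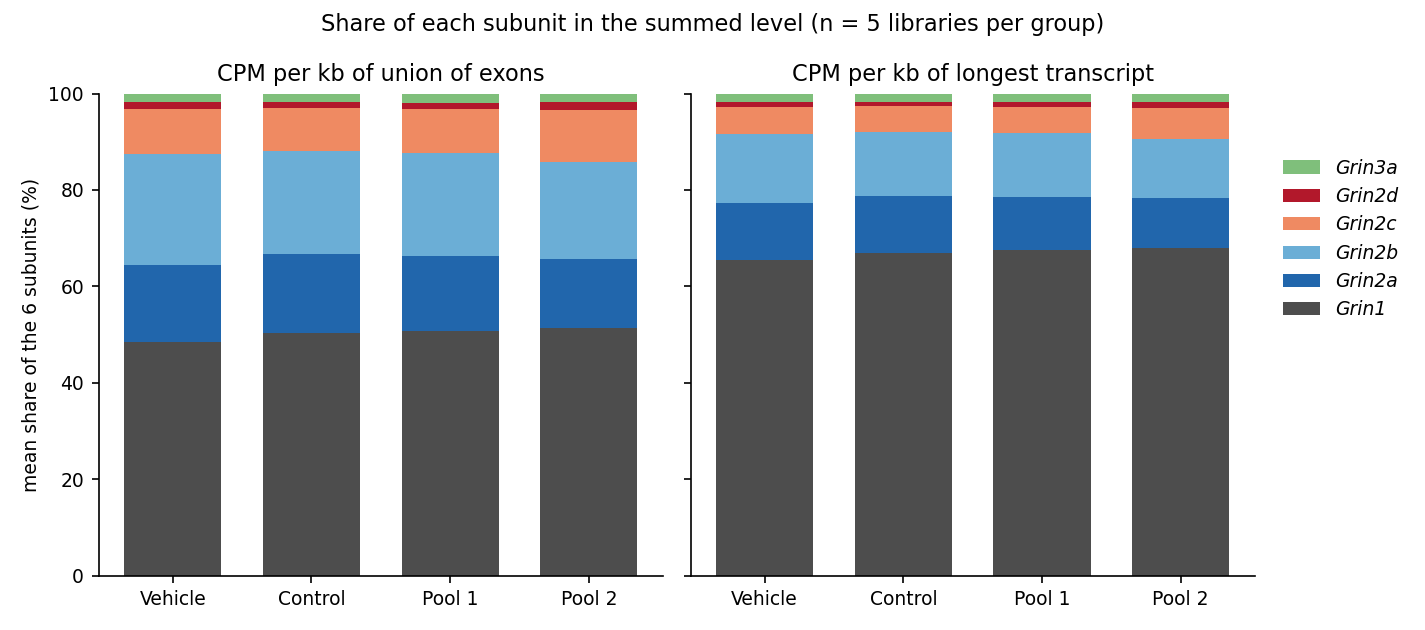
Mean share of each subunit in the summed length-scaled level of the 6 genes (vertical axis, percent, from 0) in the 4 groups (n = 5 libraries each), with joined exons as the divisor on the left and the longest transcript on the right. On the left Grin1 takes 48.4% in Vehicle, 50.3% in Control, 50.8% in Pool 1 and 51.3% in Pool 2, and Grin2c takes 10.8% in Pool 2 against 8.81% in Control.

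Grin1, the obligatory subunit, varied least across the 20 libraries, with a coefficient of variation of 9.99% on the CPM scale. It stood at 592, 653, 692, 633 and 562 CPM in Vehicle and at 743, 683, 523, 635 and 586 CPM in Control. It stood at 637, 702, 765, 710 and 710 CPM in Pool 1 and at 591, 570.0, 706, 635 and 664 CPM in Pool 2. The Pool 1 libraries were therefore mostly high, with 4 of 5 above every Vehicle library, but 1 Control library reached 743 CPM and the groups overlapped. The mean was 705 ± 45.3 CPM in Pool 1 (SD, n = 5) against 634 ± 85.1 in Control, a log2 fold change of 0.15 with an SE of 0.0926 (adjusted p = 0.917). In Pool 2 against Control the log2 fold change was -0.0025 with a 95% interval from -0.19 to 0.19, and -0.14 (adjusted p = 0.605) with offsets for GC content and transcript length, an alternative chosen after seeing the data.

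Grin2a, which encodes the GluN2A subunit of mature synapses, was lowest in Pool 2 by group mean. It was measured at 323, 424, 447, 392 and 336 CPM in Vehicle and at 274, 345, 457, 422 and 411 CPM in Control. It was measured at 383, 519, 482, 402 and 231 CPM in Pool 1 and at 298, 372, 306, 290.1 and 376 CPM in Pool 2. The highest and the lowest of the 20 values both fell in Pool 1, where replicate 2 reached 519 CPM and replicate 5 only 231 CPM. The other 4 Pool 1 libraries were above every Pool 2 library, and replicate 5 was below every Pool 2 library. The mean was 328 ± 42.1 CPM in Pool 2 against 404 ± 111 in Pool 1 and 382 ± 72.6 in Control (SD, n = 5 each), and the log2 fold change was -0.30 with an SE of 0.17 against Pool 1 (adjusted p = 0.678) and -0.22 against Control (adjusted p = 0.825).

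Grin2b, which encodes GluN2B with its long tail that binds calcium/calmodulin-dependent kinase II, followed Grin2a closely and had the widest spread of the 6, with a coefficient of variation of 25.5% and a 2.74-fold range. Its level was 699, 949, 976, 761 and 510.2 CPM in Vehicle and 456, 605, 761, 943 and 733 CPM in Control. Its level was 819, 1014, 951, 782 and 370.1 CPM in Pool 1 and 510.1, 711, 591, 607 and 769 CPM in Pool 2. Pool 1 again held both extremes, at 1014 CPM in replicate 2 and 370.1 CPM in replicate 5, and all groups overlapped. Group means were 779 ± 192 in Vehicle, 699 ± 182 in Control, 787 ± 252 in Pool 1 and 638 ± 103 CPM in Pool 2 (SD, n = 5 each). The log2 fold change of Pool 2 against Pool 1 was -0.30 with an SE of 0.236 (adjusted p = 0.814), and its interval ran from -0.80 to 0.19, wide enough to hold both no difference and a fall past the threshold.

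For both genes the comparison of the pools moved with single Pool 1 libraries. Without Pool 1 replicate 5, Grin2a fell by 0.44 (adjusted p = 0.254) and Grin2b fell by 0.48 (adjusted p = 0.364) on the log2 scale in Pool 2 against Pool 1, both past the threshold. In that fit 2067 of 25190 genes passed, 432 of them lower, in place of 1718 and 292. Without Pool 1 replicate 2 the values were -0.19 for Grin2a (adjusted p = 0.904) and -0.20 for Grin2b (adjusted p = 0.947). Pool 1 replicate 5 also stood apart in its composition over all genes, and its values are given with the co-variation of the subunits.

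Grin2c, which encodes GluN2C, was the 1 member with an unadjusted p below 0.05 in any comparison of the fit over all 25190 genes and 20 libraries without offsets, being higher in Pool 2 than in Control. Its level was 59.3, 65.4, 75.6, 54.5 and 57.8 CPM in Vehicle and 66.2, 52.5, 50.2, 55.7 and 63.9 CPM in Control. Its level was 63.2, 63.3, 64.1, 57.3 and 74.2 CPM in Pool 1 and 79.4, 63.7, 66.8, 61.6 and 74.4 CPM in Pool 2. Of the Pool 2 libraries 3 of 5 were above every Control library and of the Control libraries 3 of 5 were below every Pool 2 library, with an overlap between 61.6 and 66.2 CPM. The mean was 69.2 ± 7.51 CPM in Pool 2 against 57.7 ± 7.03 in Control (SD, n = 5), a log2 fold change of 0.26 with an SE of 0.101 and a 95% interval from 0.05 to 0.47 (adjusted p = 0.541). The change stayed short of the size threshold and did not survive adjustment. Without 1 library it passed the threshold, at 0.32 without Control replicate 1, 0.30 without Control replicate 5 and 0.30 without Pool 2 replicate 4. In those 3 fits 1480, 1707 and 1572 of 25190 genes passed. With the GC and length offsets Grin2c was at 0.11 (adjusted p = 0.709), and its lowest value over all alternatives was 0.05. Summed astrocyte markers, a cell type with which GluN2C is associated, reached 6567 CPM in Pool 2 replicate 1, where Grin2c was also highest at 79.4 CPM, and 0 Control libraries exceeded 5135 CPM. Over the 20 libraries the Pearson correlation of Grin2c with that sum was 0.39, and 0.21 without the 2 farthest libraries. With the microglial sum it was 0.42, and -0.0090 without the 2 farthest. Of the astrocyte markers 8 of 8 were above 0 in Pool 2 against Control, with a median of 0.10, and so were 4 of 4 endothelial markers, with a median of 0.31. In each list 1 was higher past the threshold, beside 5.20% of all genes. Also above 0 were 8 of 8 microglial markers (median 0.36), 8 of 8 of thalamus (0.94) and 4 of 4 of dentate granule cells (0.15). Fewer were above 0 for CA1 neurons (1 of 6), CA2 and CA3 neurons (0 of 4) and choroid plexus (0 of 7). In bulk tissue more cells of a type and more RNA per cell cannot be told apart.

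Grin2d, which encodes GluN2D of interneurons and subcortical regions, was the least abundant member and rested on 185 to 440 counts per library. It was found at 12.4, 12.3, 13.1, 11.1 and 10.3 CPM in Vehicle and at 12.7, 9.96, 8.52, 12.7 and 11.6 CPM in Control. It was found at 12.8, 11.5, 13.2, 12.5 and 14.2 CPM in Pool 1 and at 10.6, 13.9, 12.9, 18.4 and 10.7 CPM in Pool 2. Pool 2 replicate 4 alone was far above the rest, and it is also the library with the highest thalamus marker sum of 531 CPM. The mean was 13.3 ± 3.17 CPM in Pool 2 against 11.1 ± 1.81 in Control (SD, n = 5), with a log2 fold change of 0.26, an SE of 0.137 and an interval from -0.02 to 0.55 (adjusted p = 0.683), and with the offsets it was 0.10. Without Pool 2 replicate 4 the value was 0.12, and without Control replicate 1, Control replicate 4, Pool 2 replicate 1 or Pool 2 replicate 5 it was 0.32, 0.31, 0.34 and 0.33, each past the threshold. It was also past the threshold, at 0.34 (adjusted p = 0.876), over the 18 libraries without Vehicle replicate 4 and Pool 2 replicate 1. Over those 18 libraries 1146 of 25190 genes passed in the edgeR fit. In fits without 1 library 1129 to 1818 passed in this comparison. Across the 20 libraries the Pearson correlation of Grin2d with the thalamus sum was 0.54 and 0.25 once the 2 libraries farthest from the median were left out, and Spearman's rho was 0.16. With the sum of interneuron markers the Pearson correlation was -0.05. In Pool 2 against Control 1 of 9 interneuron markers was above 0, with a median of -0.23. For Grin2d in Pool 1 against Control the log2 fold change was 0.21 with an SE of 0.138 (adjusted p = 0.919), and 0.012 with the GC and length offsets.

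Grin3a, which encodes GluN3A, a subunit that lowers the calcium flow of the receptor, had group means of 30.0 CPM in Vehicle, 28.9 in Control, 32.7 in Pool 1 and 29.0 in Pool 2. Its level was 39.9, 30.3, 33.1, 24.5 and 22.2 CPM in Vehicle and 20.7, 25.8, 26.5, 35.0 and 36.7 CPM in Control. Its level was 32.1, 34.9, 29.8, 33.8 and 32.8 CPM in Pool 1 and 22.7, 30.6, 24.3, 31.6 and 35.8 CPM in Pool 2. The 5 Pool 1 libraries lay close together, within the range of Control. The log2 fold change was 0.18 with an SE of 0.16 in Pool 1 against Control (adjusted p = 0.946) and 0.0031 with an interval from -0.33 to 0.34 in Pool 2 against Control.

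**Figure D2:**
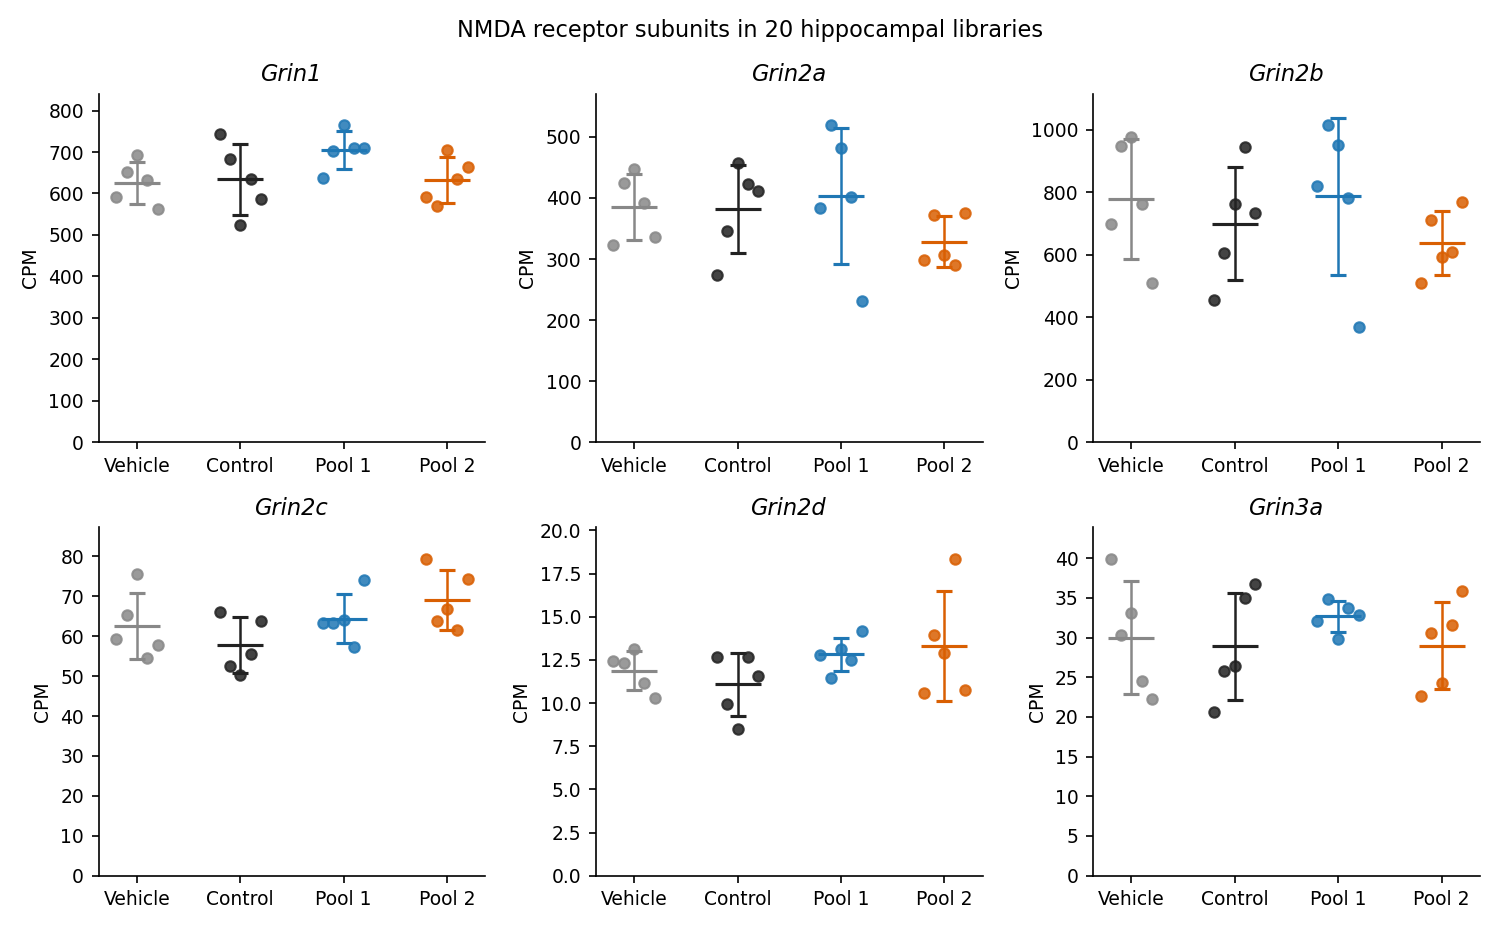
CPM (vertical axis, from 0) of the 6 subunit genes in Vehicle, Control, Pool 1 and Pool 2 libraries, 1 point per library, with the group mean as a horizontal line and the SD as the bar (n = 5). All groups overlap for each gene, Grin2a and Grin2b share the low Pool 1 library, and the highest Grin2d point at 18.4 CPM is Pool 2 replicate 4.

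By comparison, 0 of the 6 subunits passed the threshold in Pool 1 against Control, where 3.48% of all genes did (1.48% higher and 1.99% lower). All 6 log2 fold changes were above 0, between 0.08 for Grin2a and 0.21 for Grin2d, with a median of 0.16 against -0.0054 over all genes. An unadjusted p below 0.05 was reached by 0 of the 6, beside 5.22% of all genes. For 0 of the 6 were the groups free of overlap, beside 0.512% of all genes with Pool 1 wholly above Control and 0.349% wholly below. The intervals allowed a rise of at most 0.34 for Grin1, 0.37 for Grin2c and 0.49 for Grin2d, and of 0.66 for Grin2b. Under the GC and length offsets Grin2a was at -0.0056, Grin2c at -0.018, Grin2d at 0.012 and Grin1 at 0.042 in this comparison. The other members stayed above 0 under all alternatives that did not leave out a single library, the offsets included. Grin2b ranged there from 0.075 to 0.186 and Grin3a from 0.124 to 0.192. Of the markers of CA1 pyramidal neurons 6 of 6 were above 0 and 0 past the threshold, with mean sums of 970 CPM in Pool 1 and 780 CPM in Control. Above 0 were 1 of 4 markers of CA2 and CA3 neurons, 0 of 4 of dentate granule cells and 2 of 8 of astrocytes. Past the threshold and lower were 1 CA2 and CA3 marker and 1 astrocyte marker, beside 1.99% of all genes. The CA1 sum had a Pearson correlation over 20 libraries of 0.55 with Grin1 and 0.41 with Grin2c. It was 0.05 with Grin2a, -0.08 with Grin2b, -0.18 with Grin2d and 0.02 with Grin3a.

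In Pool 2 against Control 0 of the 6 passed, beside 6.22% of all genes (5.20% higher and 1.01% lower). An unadjusted p below 0.05 was reached by 1 of the 6, Grin2c, beside 7.70% of all genes, and 0 of the 6 had groups free of overlap, beside 0.770% higher and 0.282% lower. Grin2c and Grin2d were at 0.26 each (0.11 and 0.10 with the GC and length offsets), Grin2a and Grin2b at -0.22 and -0.13, and Grin1 and Grin3a at -0.0025 and 0.0031. Their median was 0.00029 against 0.0029 over all genes.

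In Pool 2 against Pool 1 0 of the 6 passed, beside 6.82% of all genes (5.66% higher and 1.16% lower). An unadjusted p below 0.05 was reached by 0 of the 6, beside 8.52% of all genes, and 0 of the 6 had groups free of overlap, beside 0.977% higher and 0.433% lower. Grin1 at -0.15, Grin2a and Grin2b at -0.30 each and Grin3a at -0.17 were below 0, while Grin2c at 0.10 and Grin2d at 0.05 were above it, and the median was -0.16 against 0.019 over all genes. With the GC and length offsets Grin1 was at -0.18 (adjusted p = 0.371) and Grin2a at -0.21 (adjusted p = 0.364), both with an unadjusted p below 0.05. In that fit 3026 of 25190 genes had an unadjusted p below 0.05. Without the offsets, 0 of 6 markers of CA1 pyramidal neurons were above 0, with a median of -0.41. Of the dentate granule cell markers 4 of 4 were, with a median of 0.37. These 3 comparisons share their libraries pairwise, so their values are not independent of each other.

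Against Vehicle 0 of the 6 passed for Control, Pool 1 or Pool 2, where 5.10%, 5.34% and 4.69% of all genes did. Of all genes, 1.70% were higher and 3.41% lower in Control, 1.06% higher and 4.28% lower in Pool 1, and 2.80% higher and 1.89% lower in Pool 2. An unadjusted p below 0.05 was reached by 0 of the 6 in each, beside 6.64%, 6.36% and 5.50% of all genes. Control differed from Vehicle by -0.16 to 0.02 on the log2 scale over the 6 genes. Pool 1 differed from Vehicle by 0.02 to 0.17, with the highest value for Grin1 (adjusted p = 0.839). Pool 2 differed by -0.29 for Grin2b and -0.23 for Grin2a to 0.15 for Grin2c and 0.16 for Grin2d.

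**Figure D3:**
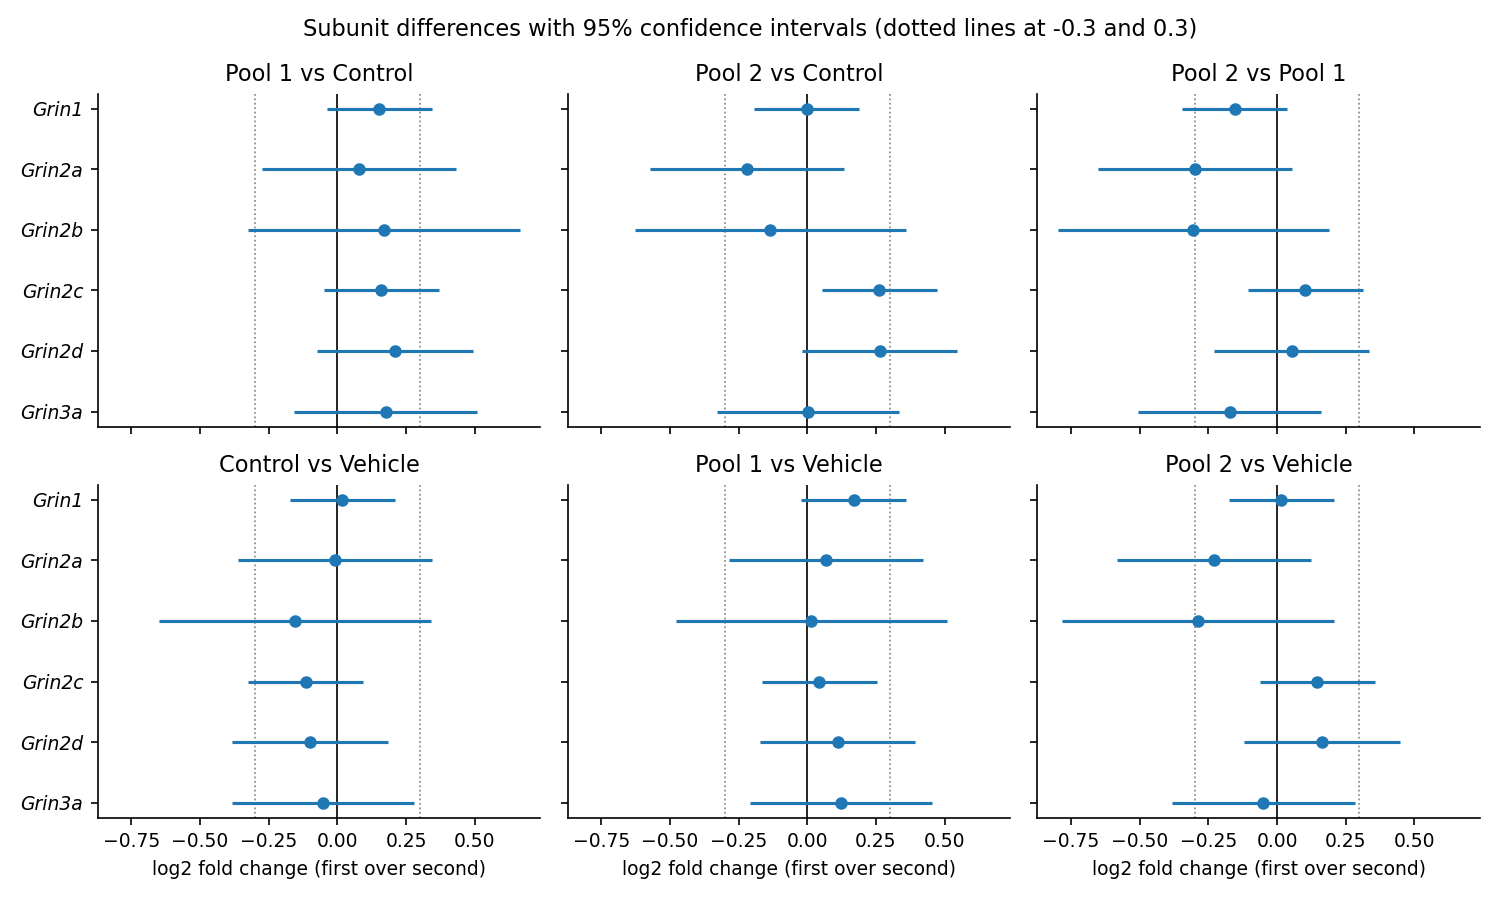
Log2 fold change of each subunit gene (horizontal axis, with its 95% interval as the bar) in the 6 comparisons, with dotted lines at the threshold of 0.3. The interval of Grin2c in Pool 2 against Control is the 1 that leaves out 0, and Grin2b has the widest intervals throughout.

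Ratios of subunits on the CPM scale set aside changes that all members share. The ratio of Grin2a to Grin2b stayed between 0.447 and 0.659 in the 20 libraries, with means of 0.508 in Vehicle, 0.556 in Control, 0.525 in Pool 1 and 0.518 in Pool 2. The balance of the minor GluN2 subunits against the major ones, Grin2c plus Grin2d over Grin2a plus Grin2b, moved more. It was 0.0702, 0.0566, 0.0623, 0.0569 and 0.0804 in Vehicle and 0.108, 0.0657, 0.0482, 0.0501 and 0.0661 in Control. It was 0.0632, 0.0488, 0.0539, 0.0590 and 0.147 in Pool 1 and 0.111, 0.0717, 0.0888, 0.0891 and 0.0744 in Pool 2. Hence 4 of 5 libraries of each other group were below every Pool 2 library, and the fifth was not: Vehicle replicate 5, Control replicate 1 and Pool 1 replicate 5. Grin2c and Grin2d have shorter and GC-richer transcripts than Grin2a and Grin2b, so this balance can move with library-wide shifts tied to either. The exceptions just named had the lowest length slope of their groups (defined below), at -0.113, -0.198 and -0.154 in that order. Control replicate 2, at -0.105, was still below every Pool 2 library in the balance. The part of the length and GC slopes in it was not tested. All ratios here are descriptions with no test.

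Co-variation across the 20 libraries was strong for 1 pair of subunits, the major GluN2 genes, which have long and GC-poor transcripts. Grin2a and Grin2b moved together, with a Pearson correlation of 0.92 in log2 CPM over 20 libraries, 0.87 without the 2 farthest libraries and 0.93 within groups. Grin2b and Grin3a came next, with 0.50 and 0.60 without the 2 farthest libraries. Grin1 followed neither, with -0.06 to Grin2a and 0.04 to Grin2b. Grin2c was at -0.31 with Grin2a and -0.21 with Grin2b. The GC-rich members were only weakly related to each other, with 0.32 between Grin1 and Grin2c, 0.38 between Grin1 and Grin2d and 0.32 between Grin2c and Grin2d, which were 0.15, 0.14 and 0.29 without the 2 farthest libraries. The points share depth, dissection and library preparation, so these are descriptions.

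The pattern ran alongside a property of whole libraries. For each library, the slope of all genes' deviations from their mean log2 CPM was taken on transcript length and on GC content, and a negative length slope means that long transcripts as a class were low in that library. Grin2b had a correlation of 0.90 with the length slope (Spearman's rho 0.80, 0.85 without the 2 farthest libraries) and -0.73 with the GC slope. Grin2a had 0.76 and -0.82. Grin2c had 0.64 with the GC slope, and Grin3a had 0.63 with the length slope. Pool 1 replicate 5 had a length slope of -0.154 log2 units per doubling of length and the highest GC slope, 0.321 per 10 percentage points, and Control replicate 1 had the lowest length slope of -0.198. These are also the libraries with the lowest Grin2b, at 370.1 and 456 CPM. When offsets for both properties entered the fit, the SE of Grin2b fell from 0.236 to 0.114 and that of Grin2a from 0.17 to 0.0926. Pool 2 against Control then gave -0.22 for Grin2a (unadjusted p below 0.05, adjusted p = 0.489), where 2328 of 25190 genes had an unadjusted p below 0.05. With these offsets 0 of the 6 members passed the threshold in any of the 6 comparisons. Whether RNA quality, library preparation or the tissue gave rise to these slopes was not tested.

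**Figure D4:**
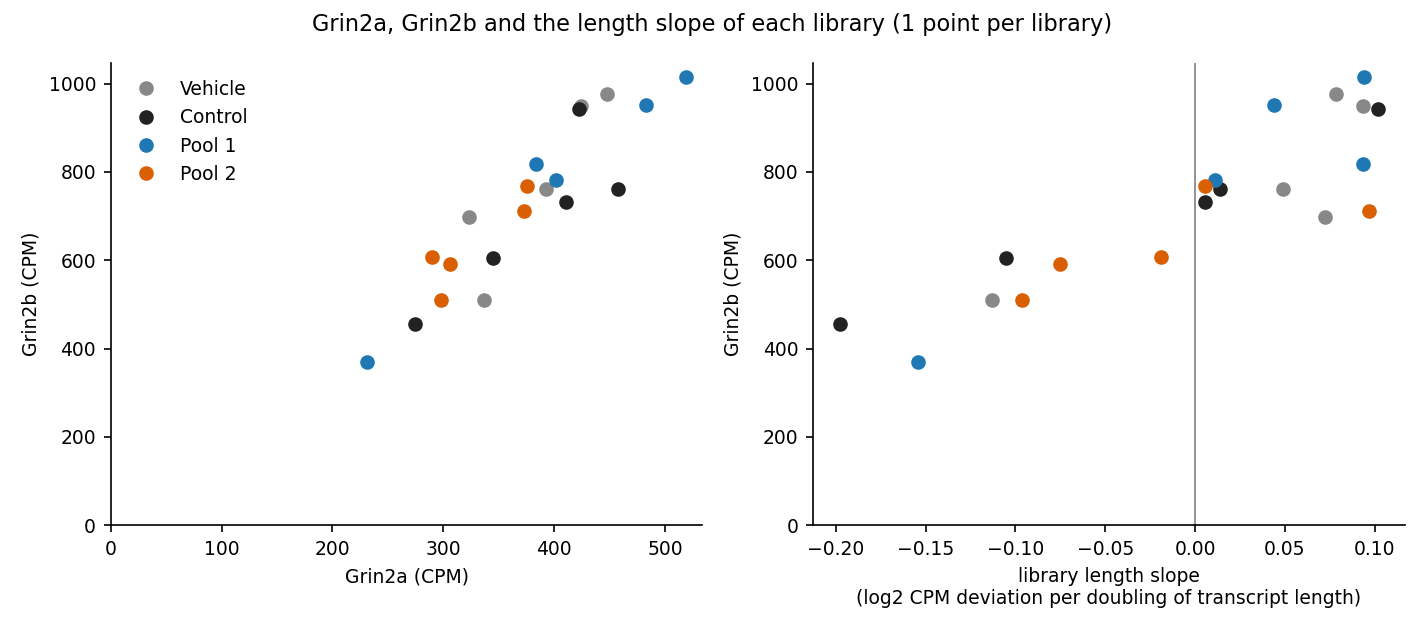
CPM of Grin2b (vertical axes, from 0) against CPM of Grin2a (left) and against the length slope of the library (right, log2 units per doubling of transcript length), 1 point per library coloured by group (n = 20). Points rise from lower left in both panels, where Control replicate 1 (456 CPM) and Pool 1 replicate 5 (370.1 CPM) lie, and libraries of the 4 groups are mixed along the trend.

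Genes whose log2 CPM was most like that of each subunit over the 20 libraries were sought among 13364 genes with a mean count of at least 50. For Grin2b they were Kcnq3 (Pearson r = 0.97), Nf1 (0.97) and Akap6 (0.97), with longest transcripts of 11824, 11917 and 14847 bases. For Grin2a they were Trim2 (0.96), Skil (0.95) and Dlgap1 (0.94). For Grin1 they were Zer1 (0.87) and Clstn1 (0.86), both with a transcript GC content between 57.3% and 57.6%. For Grin2c they were Pdgfrb (0.89), Bcan (0.88) and Col11a2 (0.87), for Grin2d Spock2 (0.89), Ccdc136 (0.88) and Xylt2 (0.85), and for Grin3a Ptprt (0.90), Cmtm4 (0.85) and Dock3 (0.84). Pdgfrb is a marker of pericytes, and the summed endothelial markers had a correlation of 0.70 with Grin2c, or 0.48 without the 2 farthest libraries. Both also went with the library GC slope. Its correlation was 0.59 with the endothelial sum (0.78 without the 2 farthest libraries) and 0.64 with Grin2c (0.50). The part of the GC slope in the link of Grin2c to endothelial markers was not tested.

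Of 56 genes that act with the receptor, in 4 lists of scaffold proteins, trafficking and anchoring proteins, calcium signalling enzymes and co-agonist metabolism, 0 passed the threshold in Pool 1 against Control, beside 3.48% of all genes. In that comparison 13 of 15 scaffold genes were above 0, with a median of 0.19 against -0.0054 over all genes. An unadjusted p below 0.05 was found for 6 of the 56, beside 5.22% of all genes, of which 4 are named here after their values were seen: Dlg4, which encodes the postsynaptic scaffold PSD-95, at 0.19, Dlgap3 at 0.23, Shank3 at 0.25 and Apba1 at 0.24.

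In Pool 2 against Control 3 of the 56 passed (5.36%, beside 6.22% of all genes), and 0 had an adjusted p below 0.05. Kif17, the motor that carries GluN2B along dendrites, was higher by 0.30 with an SE of 0.0987 (adjusted p = 0.479). It stood at 19.7, 21.5, 18.8, 24.6 and 28.4 CPM in Control and at 29.6, 28.2, 28.6, 24.6 and 28.4 CPM in Pool 2, so that the groups overlapped. Kif17 sat on the size threshold and fell below it under DESeq2, at 0.29, with the GC and length offsets, at 0.17, and without any 1 of 8 libraries, at 0.24 to 0.30. It also lost the threshold with only the groups compared in the fit, where 0 partner genes were higher past it. With DESeq2 size factors, filterByExpr or 18 libraries 1 partner gene was higher past the threshold, in place of 2. The correlation of Kif17 with the astrocyte marker sum over the 20 libraries was 0.57, and 0.57 without the 2 farthest libraries. Camk2d, a subunit of calcium/calmodulin-dependent kinase II, was higher by 0.36 (SE 0.15, adjusted p = 0.579). Its level was 23.3, 30.7, 39.4, 44.2 and 38.6 CPM in Control and 33.5, 53.2, 40.7, 60.2 and 38.5 CPM in Pool 2. The highest Camk2d value was again in Pool 2 replicate 4, without which it was 0.24 (adjusted p = 0.767) and short of the threshold, as it also was without Control replicate 1, Control replicate 2 or Pool 2 replicate 2, at 0.24, 0.31 and 0.29, and with only the groups compared in the fit, at 0.33. Its correlation with the thalamus marker sum over the 20 libraries was 0.78, and 0.56 without the 2 farthest libraries. Calm2, which encodes calmodulin, fell by 0.32 (SE 0.119, adjusted p = 0.513), and without Control replicate 1, Control replicate 2 or Pool 2 replicate 2 the values of -0.27, -0.28 and -0.27 were short of the threshold. So was Calm2 with the GC and length offsets, at -0.18.

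In Pool 2 against Pool 1 5 of the 56 passed (8.93%, beside 6.82% of all genes), again with 0 after adjustment. Akap5, which anchors kinases and calcineurin at the postsynaptic density, fell by 0.40 with an SE of 0.123 (adjusted p = 0.325). It was measured at 79.1, 105, 105, 93.4 and 67.3 CPM in Pool 1 and at 56.5, 70.4, 58.1, 68.6 and 86.7 CPM in Pool 2. As for Grin2a, Pool 1 replicate 5 was the low library of its group. Homer2, a scaffold protein, fell by 0.38 (adjusted p = 0.539), and Prkca, a protein kinase C, fell by 0.37 (adjusted p = 0.577). Homer2 lost the threshold without any 1 of 5 libraries, at -0.34 to -0.26, and with the replicate block, at -0.35, and Prkca without any 1 of 10, at -0.38 to -0.28, as well as with the offsets, at -0.34, whereas Akap5, Camk2d and Dao stayed past it in this comparison without any 1 of the 20. Lower partner genes past the threshold numbered 2, in place of 3, with the mean count filter, the replicate block and over 18 libraries by either tool. They numbered 4 with DESeq2, its size factors, filterByExpr or the offsets over 20 libraries, and 5 with only the groups compared. Camk2d was 0.48 higher (adjusted p = 0.339). Dao, the enzyme that degrades D-serine, was 1.80 higher with an SE of 0.506 (adjusted p = 0.276), at levels of only 0.0971 to 0.517 CPM in Pool 1 and 0.375 to 1.29 CPM in Pool 2, a range in which single counts weigh heavily. Above 0 was 1 of the 15 scaffold genes, with a median of -0.18 against 0.019 over all genes, beside 0 of 6 CA1 markers.

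Against Vehicle 0 of the 56 passed for Control and 1 for Pool 1 (1.79%, beside 5.34% of all genes), Camk2d, which fell by 0.32 (adjusted p = 0.774). For Pool 2 against Vehicle 3 passed (5.36%, beside 4.69% of all genes). Akap5 fell by 0.35 (adjusted p = 0.886), the scaffold gene Homer1 fell by 0.34 (adjusted p = 0.886), and Dao was 1.25 higher (adjusted p = 0.886). Each of these 4 calls was lost without some libraries: Camk2d without any 1 of 11, Akap5 without Pool 2 replicate 1 or Pool 2 replicate 3 (-0.29 each), Homer1 without Vehicle replicate 2 or Vehicle replicate 4 (-0.29 and -0.26), and Dao without Pool 2 replicate 4 (1.05). Camk2d in Pool 1 was also short of the threshold under DESeq2, its size factors, the mean count filter and filterByExpr. With the offsets Camk2d, Akap5 and Homer1 were short of the threshold, at -0.26, -0.28 and -0.24. Over the 18 libraries Dao, at 0.89, and Homer1, at -0.22, were also short of it in Pool 2 against Vehicle.

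**Figure D5:**
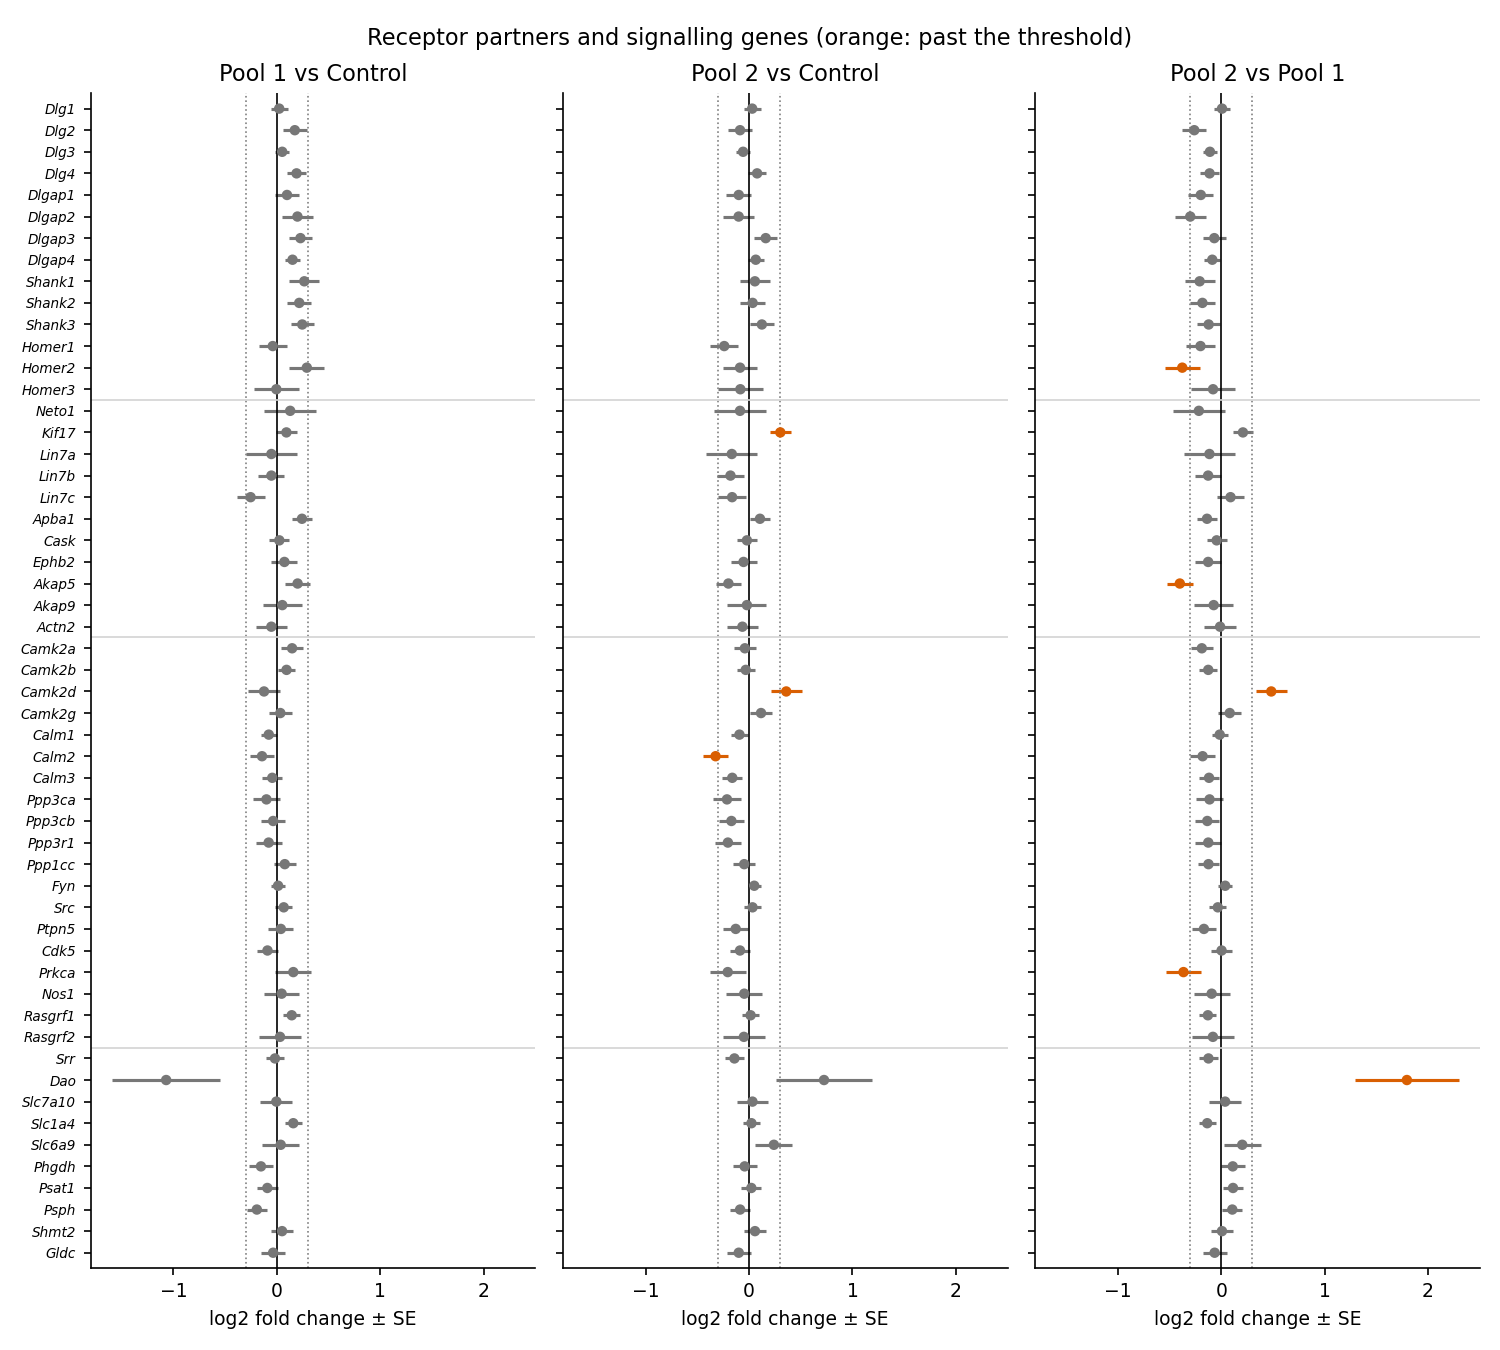
Log2 fold change (horizontal axis, with its SE as the bar) of 54 of the 56 partner genes in 3 comparisons, grouped from top to bottom as scaffold, trafficking and anchoring, calcium signalling, and co-agonist genes. Orange marks genes past the threshold, of which there are 0, 3 and 5, and most scaffold genes lie right of 0 in Pool 1 against Control and left of 0 in Pool 2 against Pool 1.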

How the data were processed

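The authors sequenced stranded poly(A) libraries in 2 rounds, aligned reads with STAR to mouse genome mm10 with GENCODE annotation, summed the rounds and removed genes with a summed count under 10. The deposited values are counts per gene for 20 libraries, of which all columns were used. Replicates differed by far more than counting error (chi-square per degree of freedom 8.23 to 66.8 within groups), so the spread between libraries, more than depth, set the precision. From the counts, CPM, log2 CPM (prior count 2) and fits were computed with edgeR 4.0.16 in R 4.3.3 (TMM scaling, robust quasi-likelihood, 4 groups in 1 fit, two-sided, Benjamini-Hochberg over 25190 genes). Scripts were tested on simulated data. Named genes were the 6 members, partner-list genes past the threshold in any comparison and the 3 genes most alike per member. A few more partner genes were named after their values were seen. Some genes and sequences that these rules give are not reported here. The members and lists were chosen with earlier results of these data known. Alternatives were DESeq2 1.42.0, its size factors, filters, another estimate of the spread, only the groups compared, a replicate block, leaving out libraries, and the longest transcript. Offsets for GC content and length, and DESeq2 over 18 libraries, were added after seeing the data. Deviations of same-numbered libraries had a median correlation of 0.0166, against -0.0048 for different numbers, and replicate numbers were not taken as pairs.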

Additional observations from a re-analysis of the deposited data

Results flagged for a closer look

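Of 44 sets of 5 libraries tested with Dixon's criterion at the 95% level (critical value 0.71), 3 held a library far from its group, where chance gives about 1 in 20. The ratio of Grin2a to Grin2b was 0.448 in Control replicate 4, against 0.560 to 0.602 in the other Control libraries. The ratio of Grin2c plus Grin2d to Grin2a plus Grin2b was 0.147 in Pool 1 replicate 5, against 0.0488 to 0.0632 in the other Pool 1 libraries. In the same library the ratio of Grin1 to the summed Grin2 genes was 1.03, against 0.436 to 0.566.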

How the results depend on the processing

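The count of subunits past the threshold was 0 in each of the 6 comparisons, and 1 in Pool 2 against Control over 18 libraries (Grin2d), with edgeR and with DESeq2. Over 18 libraries 1146 of 25190 genes passed with edgeR in that comparison, and 895 of 25176 with DESeq2. Leaving out 1 library at a time gave 0 to 2 subunits in Pool 2 against Control and 0 to 2 in Pool 2 against Pool 1. Over all 25190 genes those fits gave 1129 to 1818 and 1190 to 2067. Log2 fold changes near 0 changed sign. In Pool 1 against Control, Grin2a was -0.0056 and Grin2c -0.018 with GC and length offsets (-0.0051 and -0.018 over 18 libraries). In Pool 2 against Control, Grin1 was 0.0021 with a mean count of at least 10, 0.022 over 18 libraries and 0.012 there with DESeq2, and its lowest value was -0.14 with the offsets. Grin3a was -0.0059 with DESeq2 and with its size factors, -0.013 with filterByExpr, -0.022 with only the groups compared and -0.042 with the offsets. Without 1 library the range in Pool 1 against Control was 0.09 to 0.22 for Grin1 and -0.028 to 0.23 for Grin2a. There it was 0.05 to 0.35 for Grin2b, 0.10 to 0.21 for Grin2c, 0.13 to 0.26 for Grin2d and 0.08 to 0.28 for Grin3a. The unadjusted p of Grin1 in that comparison ran from 0.029 to 0.33 in these edgeR fits. In Pool 2 against Control the range was -0.064 to 0.061 for Grin1 and -0.32 to -0.15 for Grin2a. It was -0.25 to -0.015 for Grin2b and -0.096 to 0.10 for Grin3a there. In Pool 2 against Pool 1 it was -0.091 to 0.13 for Grin2d. Partner genes past the threshold in Pool 1 against Control numbered 1 with DESeq2, with only the groups compared, over 18 libraries by either tool and with offsets over 18, and in Pool 2 against Control 1 with only the groups compared and with offsets over 20 or 18 libraries. Leaving out 1 library gave 0 to 2, 0 to 4 and 3 to 9 in the 3 comparisons without Vehicle. With the longest transcript as divisor the mean shares were 67.0% for Grin1, 11.3% for Grin2a, 13.2% for Grin2b, 5.75% for Grin2c and 1.00% for Grin2d. The cause of these shifts was not tested. Over all genes, the filter at a mean count of 10 left 402 genes past the threshold in Pool 1 against Control, 969 in Pool 2 against Control and 1133 in Pool 2 against Pool 1, in place of 876, 1566 and 1718, among 16644 tested. Filtering by filterByExpr left 426 in Pool 1 and 960 in Pool 2 against Control, among 17293. Against Vehicle the filters left 795 and 821 for Control, 795 and 776 for Pool 1 and 703 and 723 for Pool 2, in place of 1285, 1345 and 1181. Over 18 libraries Pool 2 against Vehicle gave 786, and DESeq2 there gave 580, 895 in Pool 2 against Control and 1013 in Pool 2 against Pool 1. Offsets turned the split in Pool 1 against Control from 374 higher and 502 lower to 438 and 284, and in Control against Vehicle from 427 and 858 to 220 and 889. With the replicate block, 0 subunits passed in each comparison. Deviations from the group means in same-numbered libraries had correlations of -0.427 to 0.334 (median 0.0166), with 12 of 30 pairs over 0.1. Libraries with different numbers had -0.614 to 0.627 (median -0.0048), with 32 of 120 over 0.1. With 5 libraries per group these values cannot settle whether replicate numbers mark pairs. Counting error weighs most on Grin2d and Grin3a, which had the fewest counts, 185 to 440 and 462 to 948 per library.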
